A study of Drosophila melanogaster with 2 samples.

Results

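Intronic peaks away from promoters were the sites of amos-eGFP ChIP signal whose summit lay inside a protein-coding gene, over 500 bp from the transcription start site (TSS) of every protein-coding gene, in no annotated exon and over 100 bp from any tRNA gene. There were 493 such peaks among the 5823 peaks of the pooled list on the 6 main chromosome arms of Drosophila melanogaster. The rule used positions only, and neither signal nor sequence. Going down its steps, 1471 peaks were over 500 bp from every protein-coding TSS, 870 of those lay in a protein-coding gene body, 505 of those lay in no exon, and 12 of those were within 100 bp of a tRNA gene and were left out. The annotation lists transposable elements as genes with an exon, so that 3 summits in such elements inside genes were not counted as intronic.

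The libraries came from 1 group of whole embryos aged 0 to 18 h, of a transgenic strain labelled amos-GFP, whose flies express amos-eGFP fusion proteins. These proteins were immunoprecipitated with an antibody against GFP, and chromatin had been sonicated to 200 to 800 bp. There were 2 biological replicates, and no library of untagged embryos or of input chromatin was analysed here. Whole embryos mix all tissues, so a peak does not say in which cells the site was bound.

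Amos is a proneural transcription factor of the basic helix-loop-helix class, related to Atonal and best known for starting the development of olfactory sense organs on the antenna. Proneural proteins pair with Daughterless and recognise the E-box, a short site that reads CANNTG, where N is any base. In flies, introns can hold enhancers of their own or of neighbouring genes, and first introns are known to be rich in them. Boundary and promoter proteins such as BEAF-32, which recognises CGATA words, and DREF, which binds the palindrome TATCGATA, are in contrast best known from the start sites of widely expressed genes.

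The sequences below are the 101 bases centred on summits, on the plus strand of dm6, for 6 of the strongest intronic peaks. Sequence from 1 arm, which holds the strongest peak of all, in Adf1, is not shown. They are shown because they are strong peaks, of which some hold the words on which the results on sequence turn and some do not. Capitals mark CGATAG, TATCGATA and ATGTAGA, each on either strand.
Asator (chr4:486658-486758): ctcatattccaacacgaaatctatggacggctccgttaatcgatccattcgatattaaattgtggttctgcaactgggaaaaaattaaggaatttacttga
zf30C (chr2L:9759060-9759160): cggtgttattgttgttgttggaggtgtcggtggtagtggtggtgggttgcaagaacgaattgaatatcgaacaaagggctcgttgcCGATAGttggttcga
Tudor-SN (chr3L:262851-262951): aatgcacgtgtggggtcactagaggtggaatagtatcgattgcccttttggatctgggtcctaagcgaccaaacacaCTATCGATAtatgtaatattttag
CG42709 (chr3L:12794660-12794760): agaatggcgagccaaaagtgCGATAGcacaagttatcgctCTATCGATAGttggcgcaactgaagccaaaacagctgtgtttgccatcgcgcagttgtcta
Stt3A (chrX:21053276-21053376): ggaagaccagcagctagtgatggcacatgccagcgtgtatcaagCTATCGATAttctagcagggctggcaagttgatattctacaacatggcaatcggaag
CG3726 (chrX:5918870-5918970): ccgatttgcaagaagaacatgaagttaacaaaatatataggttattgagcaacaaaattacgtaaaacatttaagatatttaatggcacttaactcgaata
Of these 6 windows, those in zf30C, Tudor-SN, CG42709 and Stt3A held CGATAG, and those in Asator and CG3726 held none of the marked words. The CG42709 window held 4 matches that overlap in part.

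The next 4 windows are those of the strongest peaks on the same arms with ATGTAGA, in capitals. This 7-base word was chosen after the sequences of the strongest peaks and a scan of all hexamers had been seen.
CG7102 (chr2L:7886121-7886221): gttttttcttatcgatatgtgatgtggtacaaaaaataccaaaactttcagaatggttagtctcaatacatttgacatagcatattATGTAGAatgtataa
Eip74EF (chr3L:17597038-17597138): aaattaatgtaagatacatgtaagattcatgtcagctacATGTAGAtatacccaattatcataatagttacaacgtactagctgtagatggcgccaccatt
unc79 (chr3R:19239083-19239183): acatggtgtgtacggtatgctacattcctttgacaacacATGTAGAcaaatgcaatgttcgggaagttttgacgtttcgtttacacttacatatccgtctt
Eip75B (chr3L:17988302-17988402): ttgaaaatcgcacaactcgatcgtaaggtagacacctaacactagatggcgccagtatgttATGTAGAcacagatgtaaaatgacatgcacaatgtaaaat
The windows of the E-box set are those of the strongest peaks on the same arms that hold CAGCTG, the E-box with a GC centre, in capitals. The strongest of all was the CG42709 window already shown, which holds it once.
klar (chr3L:441872-441972): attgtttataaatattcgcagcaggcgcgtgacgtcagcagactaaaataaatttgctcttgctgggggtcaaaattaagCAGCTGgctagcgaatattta
Dhc64C (chr3L:4824702-4824802): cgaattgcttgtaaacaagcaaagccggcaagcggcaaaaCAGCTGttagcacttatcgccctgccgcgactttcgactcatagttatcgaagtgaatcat
e(y)3 (chrX:19631646-19631746): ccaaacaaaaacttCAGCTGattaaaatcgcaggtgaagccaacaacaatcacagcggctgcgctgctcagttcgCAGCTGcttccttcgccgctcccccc
The last windows are those of the strongest peaks on the same arms with GAGAGAG, the word bound by GAGA factor, in capitals on either strand.
CG32264 (chr3L:3789290-3789390): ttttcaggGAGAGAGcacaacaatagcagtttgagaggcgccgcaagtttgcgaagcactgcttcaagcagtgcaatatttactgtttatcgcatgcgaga
mod(mdg4) (chr3R:21376400-21376500): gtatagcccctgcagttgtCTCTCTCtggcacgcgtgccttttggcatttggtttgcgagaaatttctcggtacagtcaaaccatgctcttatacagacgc
Imp (chrX:10816948-10817048): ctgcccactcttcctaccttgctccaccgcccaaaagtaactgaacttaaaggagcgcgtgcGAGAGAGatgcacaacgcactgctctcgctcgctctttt
Mad (chr2L:3158774-3158874): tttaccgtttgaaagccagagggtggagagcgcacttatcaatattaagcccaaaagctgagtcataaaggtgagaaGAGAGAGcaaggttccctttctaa

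Intronic peaks were sparse and mostly weak. They made up 8.47% of the pooled list (Wilson 95% interval 7.78 to 9.21), while the introns that the rule allowed made up 36.2% of the sequence of the arms, or 48.5 of 133.9 Mb. That is 10.2 peaks per Mb of allowed intron, against 62.4 peaks per Mb in the rest of the arms. Intergenic sequence, outside all protein-coding genes, had 12.5 peaks per Mb. In the lists called on each replicate alone, intronic peaks made up 9.14% in replicate 1 (568 of 6213 peaks) and 6.56% in replicate 2 (189 of 2880 peaks), a mean of 7.85% ± 1.82 (SD, n = 2). In the stricter conservative pooled list the share was 4.30% (134 of 3115 peaks). Over the 6 arms, the density ran between 5.03 peaks per Mb on arm 4, which had 2 members, and 12.8 peaks per Mb on 2R, with 7.37 peaks per Mb on X, 9.02 on 3R, 10.1 on 2L and 12.3 on 3L.

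Signal here is the peak-caller value that the authors deposited for each peak, which has no fixed unit and serves here to describe and rank peaks within 1 list. Intronic peaks had a median signal of 67.0 (lowest 2.62, highest 1192), against 141 for the 4332 promoter peaks, 97.1 for the 429 intergenic peaks, 58.8 for the 361 exonic peaks and 250.3 for the 208 peaks at tRNA genes. The strongest intronic peak ranked 154th in the pooled list. A signal over 200 was reached by 48 members (9.74%), and 13 members had a signal under 10. Of the members, 49.1% (242 peaks, interval 44.7 to 53.5) had a q value above 0.05, against 18.3% of promoter peaks and 26.8% of intergenic peaks. Read the other way, 251 members had a q value of 0.05 or less, where 76.4% of all peaks in the list did. No member with a q value above 0.05 had a signal over 66.8.

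**Figure D1:**
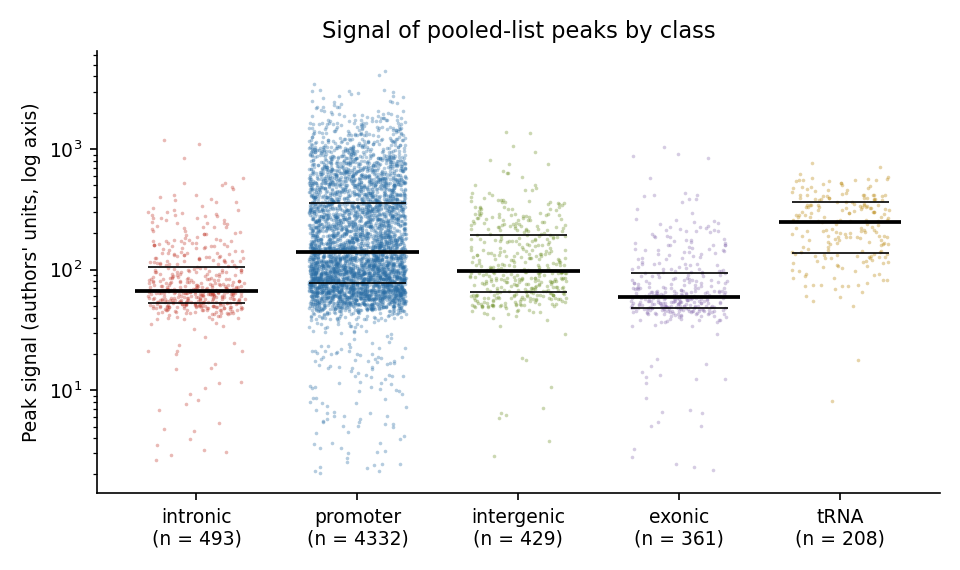
Signal of every peak of the pooled list on the main arms (log axis), by class, with the median (thick line) and the quartiles (thin lines). The quartiles of the intronic peaks are 53.1 and 105, with a median of 67.0 against 141 for promoter peaks.

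A smaller share of intronic peaks than of promoter or intergenic peaks was found again in both replicates, and the difference went with their lower signal. Of the members, 79 (16.02%, interval 13.1 to 19.5) overlapped a peak in the lists of both replicates, against 44.7% of promoter peaks and 35.2% of intergenic peaks, and 39.7% of all peaks. The share was 12.2% of exonic peaks and 47.6% of peaks at tRNA genes, neither of which was tested. The differences from promoter and intergenic peaks passed Fisher's exact test, with adjusted exact p = 1.1e-37 against promoter peaks and adjusted exact p = 2.1e-11 against intergenic peaks (two-sided, Benjamini-Hochberg over 2 comparisons). Peaks are not independent replicates, so these p-values describe the lists. Another 227 members (46.0%) were in the list of replicate 1 alone, 63 (12.8%) in that of replicate 2 alone and 124 (25.2%) in neither, although all were in the pooled list. Over all peaks of the pooled list, these shares were 42.3%, 7.20% and 10.9%, in the same order. When promoter and intergenic peaks were weighted to the deciles of signal of the intronic peaks, their shares in both lists were 18.8% and 19.02%, which left differences of -2.75 and -3.00 percentage points. Among the 16 members among the strongest 20% of all peaks, 14 were in both replicate lists (87.5%, interval 64.0 to 96.5), against 91.0% of promoter peaks in that bin. In the weakest 20% the shares were 4 of 206 members (1.94%) and 5.53% of promoter peaks.

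**Figure D2:**
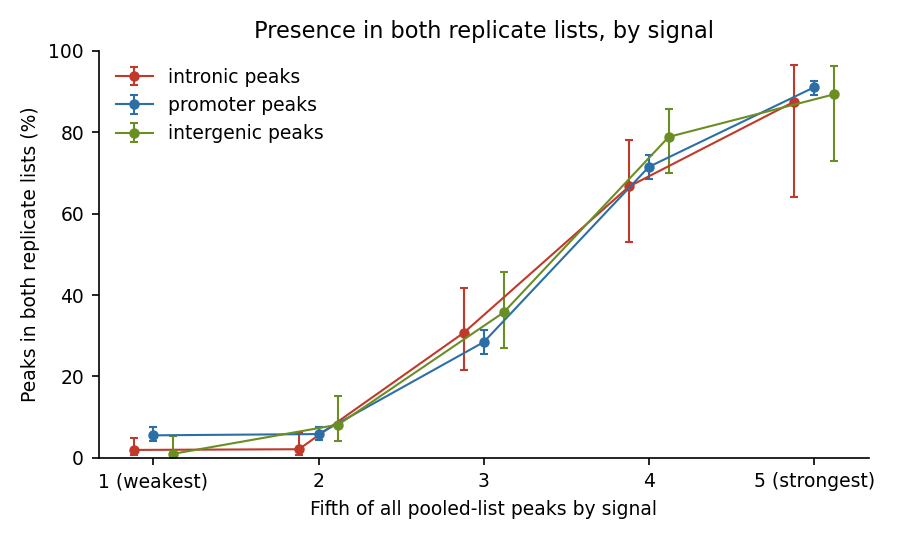
Share of peaks found in both replicate lists, in 5 bins that each hold 20% of all pooled-list peaks ordered by signal, with Wilson 95% intervals. Within each bin the intronic and intergenic intervals overlap, and the share of intronic peaks runs between 1.94% in the weakest and 87.5% in the strongest bin.

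Each replicate also has a longer ranked list, and the strongest overlapping region in it gives a value for each member in each sample. A region overlapped 469 members in replicate 1 and 294 in replicate 2, and 271 members in both. Over those 271 members, the Spearman correlation of the values of the replicates was 0.22, while over 3176 promoter peaks it was 0.80. The points are peaks of the same pair of libraries, chosen for presence in both, and these are descriptions. The correlations were not matched on signal, whose range differs between the classes. In the pooled list its quartiles were 53.1 and 105 for intronic peaks and 77.3 and 355 for promoter peaks.

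**Figure D3:**
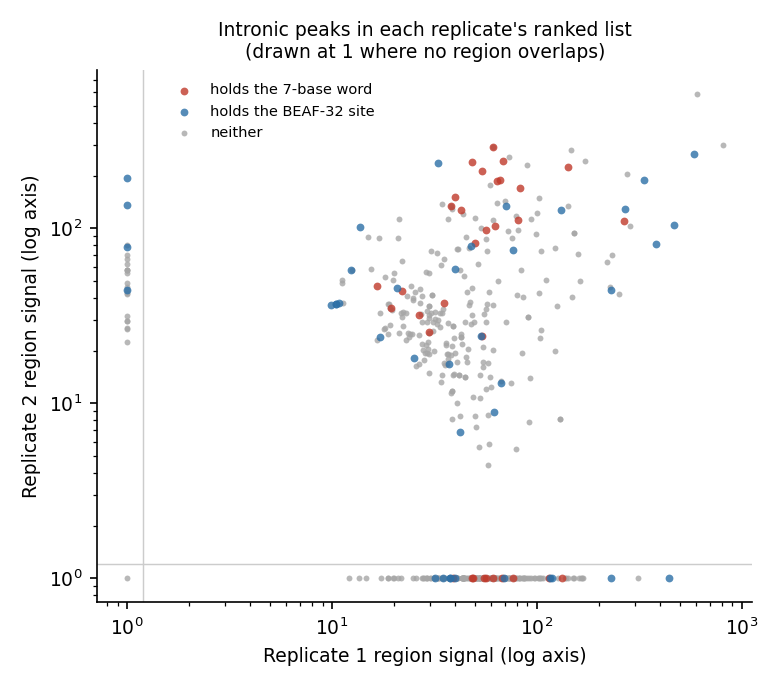
Signal of the strongest overlapping region in the ranked list of replicate 1 (horizontal, log axis) and of replicate 2 (vertical, log axis) for each of the 493 intronic peaks, drawn at 1 where no region overlapped, in red where the window holds the 7-base word, in blue where it holds CGATAG and in grey where it holds neither. A region overlapped 271 peaks in both lists, of which 23 hold the 7-base word.

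The strongest intronic peaks lay in genes of many kinds. Most of these genes had a promoter peak as well, as did the hosts of 353 of all members (71.6%). The strongest peak was in Adf1, a Myb-type transcription factor first known from the Adh promoter. It had a pooled signal of 1192, and its regions had signals of 602 in replicate 1 and 582 in replicate 2. They ranked 312th and 51st in the ranked lists of these samples. The peak in Asator, a kinase of the tau-tubulin kinase type on arm 4, had a pooled signal of 1108, with 807 in replicate 1 and 301 in replicate 2. The peak in zf30C, a zinc finger gene, had 849.6, with 585 and 267 in replicates 1 and 2. Tudor-SN, a nuclease found in the RNA-induced silencing complex, had 572, with 467 in replicate 1 and 105 in replicate 2. These 4 peaks were in both replicate lists, each in a first intron, 675 to 1479 bp from the nearest protein-coding TSS, and their hosts all had a promoter peak.

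The peak in CG42709, which also lies inside the autophagy kinase gene Atg1, had a pooled signal of 527, with 443 in replicate 1 and no region in replicate 2. Stt3A, the catalytic subunit of oligosaccharyltransferase, had 526, with 332 in replicate 1 and 189 in replicate 2. CG3726 had 507, with 311 in replicate 1 and none in replicate 2. The phosphatase gene Pp2C1 had 480, the zinc finger gene woc 467, the DNA and RNA dioxygenase gene Tet 419.9, the cell polarity scaffold gene scrib 419.4, and kirre, which encodes an adhesion protein of myoblast fusion, 404. Among the 25 strongest members, the peak in Tet was the farthest from a protein-coding TSS, at 27186 bp, and that in woc the nearest, at 508 bp.

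Values from the lists of different replicates are given side by side here, and their sizes are not compared. The peak in unc79, an accessory subunit gene of the NALCN-type sodium leak channel, had a pooled signal of 364, with 60.9 in replicate 1 (rank 3989) and 293 in replicate 2 (rank 383). The peak in smash had 313, with 68.1 in replicate 1 and 241 in replicate 2. Argk1, which encodes arginine kinase, had 288, with 54.1 and 213 in replicates 1 and 2. The peak in org-1, a T-box factor gene, had 383, with 285 in replicate 1 (rank 994) and 103 in replicate 2 (rank 1478). The peak in Eip74EF, an ecdysone-induced Ets factor gene, had 367, with 141 in replicate 1 and 224 in replicate 2. Eip75B, a nuclear receptor gene induced by ecdysone, had 335, with 132 in replicate 1 and no region in replicate 2. The others were in CG7102 (375), raskol (327), TfAP-2 (314), CG8745 (303), CG32264 (299), Mapmodulin (298) and bun (285). Of the 50 strongest members, 40 were in both replicate lists, 48 in that of replicate 1 and 42 in that of replicate 2.

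Members just inside the distance limit were those in HDAC1 at 502 bp from a TSS (signal 78.2), l(3)neo38 at 504 bp (67.1) and lace at 505 bp (68.8). Just outside it lay peaks in introns of tay at 494 bp (155), 14-3-3zeta at 492 bp (462) and Larp4B at 492 bp (127), which counted as promoter peaks.

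Within introns, the peaks lay close to promoters. Their median distance to the nearest protein-coding TSS was 2043 bp, against 6222 bp for the bases of the introns that the rule allowed. Density fell with distance, with 34.4 peaks per Mb at 501 to 1000 bp (132 peaks), 18.4 at 1001 to 2000 bp (112 peaks), 10.5 at 2001 to 5000 bp (118 peaks), 7.13 at 5001 to 10000 bp (70 peaks) and 3.48 farther away (61 peaks). The median signal in these bins was 73.2, 69.3, 66.3, 66.2 and 58.9, in the same order. Of the 132 members within 1000 bp of a TSS, 80 had another summit of the pooled list within 1000 bp, and of all members 134 (27.2%) had one. The TSS of a non-coding gene lay within 500 bp of 21 members (4.26%). The shares with a summit or a non-coding TSS nearby are not given for other peaks or for allowed bases. They cannot be called particular to intronic peaks. The farthest member, in Myo81F on arm 3R, was 814764 bp from a protein-coding TSS and had a signal of 55.6 and a q value above 0.05.

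Exon-free stretches of up to 1000 bp had 14.8 peaks per Mb and those of 1001 to 5000 bp had 17.5, while those of 5001 to 20000 bp had 7.78 and longer ones 2.12. The median signal of the 84 members in the shortest stretches was 92.3, and that of the 19 members in the longest was 50.1. The 493 members lay in 438 separate stretches, of which 50 held more than 1 member and none more than 4. Summits lay at a median of 619 bp from an exon edge, and 52 lay within 100 bp of one, with no such values for allowed bases beside them.

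**Figure D4:**
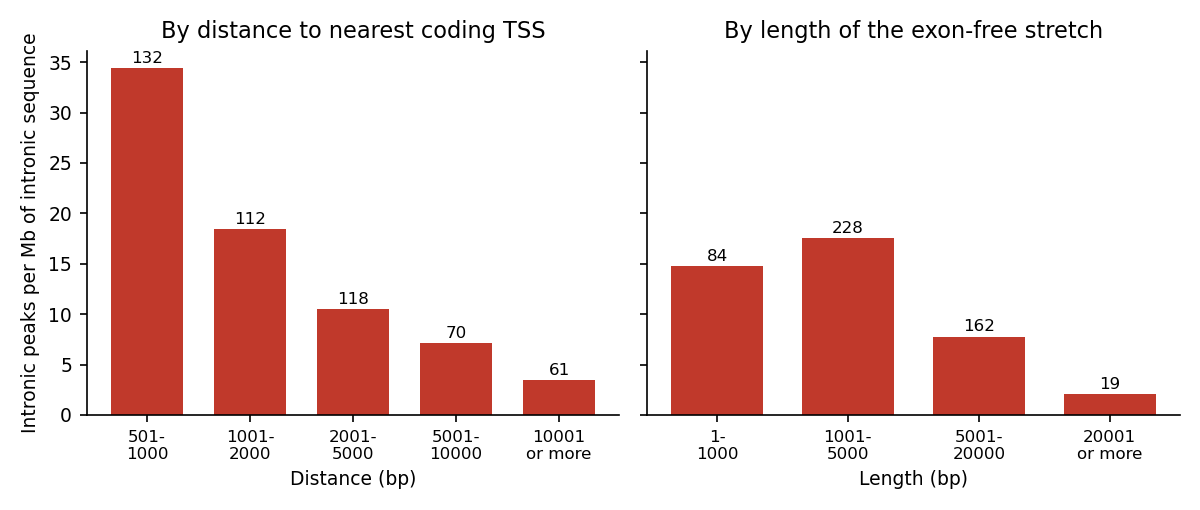
Intronic peaks per Mb of the intronic sequence that the rule allowed, by distance of the summit to the nearest protein-coding TSS and by length of the exon-free stretch, with the number of peaks over each bar. Density falls between 34.4 peaks per Mb nearest the TSS and 3.48 beyond 10000 bp.

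First introns of at least 1 transcript held 287 members (58.2%, interval 53.8 to 62.5), against 43.4% of the allowed intronic sequence, or 13.6 peaks per Mb in first introns and 7.50 in other introns. The replicates did not show this alike. In the list of replicate 1, 64.8% of intronic peaks lay in first introns, and in that of replicate 2, 42.3%, which is below the 43.4% of sequence by 1.07 percentage points. Of members in first introns, 67.9% were in the list of replicate 1 and 21.6% in that of replicate 2. Of members in other introns, 53.9% were in the list of replicate 1 and 38.8% in that of replicate 2. Median signals were 66.4 in first introns and 67.8 in others.

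Few summits lay in repeated or repeat-masked sequence, but such shares are not given for flanks, allowed introns or other peaks. The rule also leaves out summits in annotated transposable elements. The central 51 bases of 1 member occurred more than once on the main arms, and 18 members (3.65%) had over 50% of their 101-base window soft-masked as repeats in the reference. The median GC content of these windows was 46.5%, against 41.6% in windows 1000 bp to each side and 44.6% at promoter peaks.

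BEAF-32-type and DREF-type words were more frequent at intronic summits than beside them. Of 22 motifs, each searched on both strands within 50 bp of the summit, 2 were higher and 1 lower at summits than in the flank of lower coordinate (two-sided exact binomial test on discordant pairs, adjusted p of 0.05 or less, Benjamini-Hochberg). CGATAG was found at 40 members (8.11%, interval 6.01 to 10.9), against 2.43% of flanks on both sides and 1.82% of all allowed intronic windows, with adjusted exact p = 0.00033. In the lists of replicates 1 and 2 its shares at summits were 5.46% and 11.6%, against flanks of 2.20% and 2.91%, a mean of 8.55% ± 4.37 at summits and 2.56% ± 0.502 in flanks (SD, n = 2). TATCGATA, which overlaps CGATAG wherever a G follows it, was at 23 members (4.67%), against 0.811% of flanks and 0.190% of all allowed intronic windows, with adjusted exact p = 0.00097. In the lists of replicates 1 and 2 it was at 2.82% and 9.52% of summits, against flanks of 0.528% and 1.06%. Neither CGATAG nor TATCGATA passed in the conservative list of 134 members (adjusted exact p = 1 for each), where their ratios to flanks were 3 and 5.5, against 3.33 and 5.75 in the pooled list. CCGGAA, the core word of Ets factors, was at 4 members (0.811%), against 3.65% of flanks (adjusted exact p = 0.019), a call that was not made among peaks with q of 0.05 or less, in the conservative list, in the list of replicate 2, with wider windows or with flanks 2000 bp away. Of the flank centres, 220 of 986 lay within 500 bp of a protein-coding TSS. In the 198 members whose flanks on both sides also lay in allowed introns no motif passed, CGATAG had 4.29 times the share of the flanks with adjusted exact p = 0.086, and at an unadjusted p under 0.05 3 motifs were higher and 1 lower.

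Both words were nevertheless scarcer at intronic summits than at promoter summits, where CGATAG was found at 31.6% (Fisher's exact test, adjusted exact p = 1.2e-31) and TATCGATA at 17.1% (adjusted exact p = 1.1e-14). The M1BP word GGTCACACT was at 2 members (0.406%) and at 4.66% of promoter summits (adjusted exact p = 5.1e-07). CGATAG was at 6 of the 16 members in the bin of the strongest 20% of all peaks (37.5%) and at 66.7% of promoter peaks in it. In the weakest 20% it was at 5.34% of members and 4.15% of promoter peaks. The share of members with CGATAG hardly varied with distance to the TSS, being 8.33% at 501 to 1000 bp and 9.84% beyond 10000 bp. Intergenic summits held CGATAG at 11.9% and TATCGATA at 5.59%, and neither difference passed (adjusted exact p = 0.34 and 0.84).

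No E-box word passed the test at intronic summits against flanks. Any E-box was found at 230 members (46.7%, interval 42.3 to 51.1), against 40.7% of flanks and 40.04% of all allowed intronic windows (adjusted exact p = 0.29). Among the 10 distinct E-box words, CAGCTG was at 30 members (6.09%), against 4.77% of flanks (adjusted exact p = 1), and CAACTG at 46 (9.33%), against 6.19% (adjusted exact p = 0.16). In the replicates, any E-box was at 43.3% and 46.6% of summits, against flanks of 40.4% and 40.7%. Against promoter summits, the share with any E-box was higher by Fisher's exact test (46.7% against 39.3%, adjusted exact p = 0.0069), as were those with CATGTG (5.88% against 3.35%, adjusted exact p = 0.019) and CAAATG (9.74% against 6.69%, adjusted exact p = 0.036). CAGCTG was lower, at 6.09% against 9.81% (adjusted exact p = 0.019). Of the 3 simple repeats among the motifs, 2 were more frequent at intronic than promoter summits. CACACACA was at 6.49% against 1.85% (adjusted exact p = 2.3e-07), and GAGAGAG at 4.46% against 1.64% (adjusted exact p = 0.00069). In the lists of replicates 1 and 2, CACACACA was at 7.22% and 2.65% of intronic summits, and GAGAGAG at 5.28% and 2.12%. None of these 5 higher shares passed against promoter summits in the conservative list, and 2 motifs passed as higher among peaks with q of 0.05 or less. The third, AAAAAAAA, was at 2.64% against 3.25% and did not pass (adjusted exact p = 0.76). CACACACA alone differed in share between intronic and intergenic summits, at 6.49% against 1.86% (adjusted exact p = 0.012), and it did not pass among peaks with q of 0.05 or less or in the list of either replicate. CCGGAA was lower than at promoter summits, at 0.811% against 2.45% (adjusted exact p = 0.036). Of the 22 motifs, 5 were thus higher and 5 lower than at promoter summits, and 1 was higher and 0 lower than at intergenic summits, where 1 was higher and 1 lower at an unadjusted p under 0.05.

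**Figure D5:**
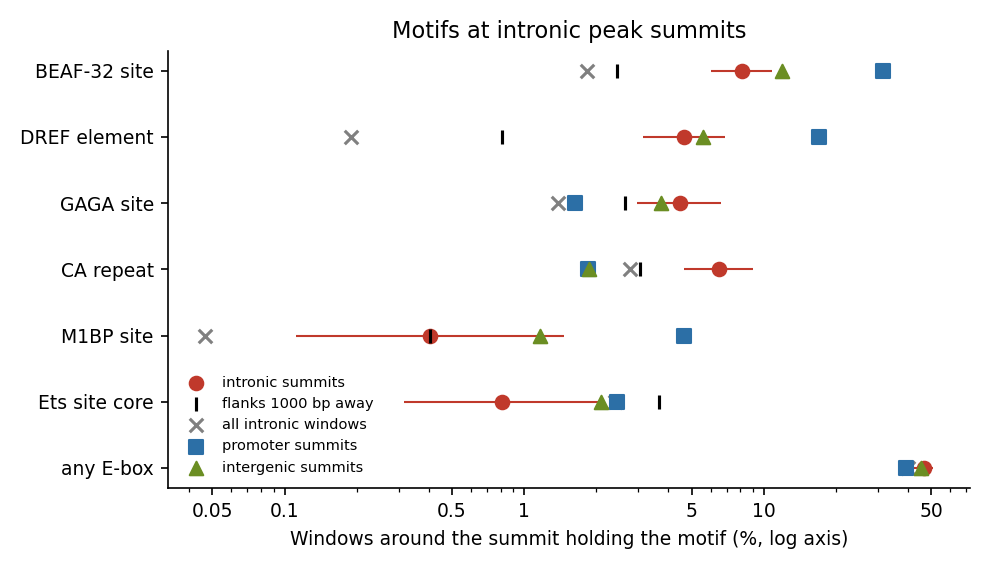
Share of 101-bp windows that hold each motif on either strand (log axis) at intronic summits with Wilson 95% intervals, in flanks 1000 bp away, over all allowed intronic windows, and at promoter and intergenic summits. The BEAF-32 and DREF words lie at 8.11% and 4.67% at intronic summits, between the flanks and the promoter summits.

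A scan of all 2080 hexamers, counted with their reverse complements and added after the data had been seen, called 15 words at intronic summits against flanks, or 0.721%, of which 12 were higher and 3 lower. The first was TCTACA, at 48 members (9.74%, interval 7.42 to 12.7), against 3.25% of flanks and 3.33% of all allowed intronic windows (two-sided exact binomial test, adjusted exact p = 0.0026 over all hexamers). ATGTAG was at 47 members (9.53%), against 2.64% of flanks (adjusted exact p = 0.0063), and GTAGAA at 8.72%, against 3.55% (adjusted exact p = 0.027). Read on 1 strand, these words overlap and spell ATGTAGAA. TCTACA was at 7.75% and 18.0% of intronic summits in the lists of replicates 1 and 2, against flanks of 3.70% and 3.44%. ATGTAG did not pass in the list of replicate 1 (adjusted exact p = 0.066) but passed in that of replicate 2 (adjusted exact p = 0.029). GTAGAA did not pass in the list of replicate 1 (adjusted exact p = 0.30) or replicate 2 (adjusted exact p = 0.70). At q of 0.05 or less and in the conservative list, ATGTAG passed (adjusted exact p = 0.0051 and 0.011) and GTAGAA did not (adjusted exact p = 0.21 and 0.84). Among the 198 members with flanks in introns on both sides, the shares of TCTACA stood at 2.12 times those of the flanks with adjusted exact p = 0.56, and no hexamer passed.

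Words of the ATGTAGAA family were more frequent at intronic than at promoter summits. Of the hexamers, 131 were more frequent at intronic than at promoter summits (6.3%, Fisher's exact test, adjusted p of 0.05 or less) and 100 less frequent. TCTACA was at 9.74% of intronic against 3.46% of promoter summits (adjusted exact p = 4.7e-07), and ATGTAG at 9.53% against 2.77% (adjusted exact p = 4.9e-09). At intergenic summits their shares were 17.7% and 15.6%, and neither difference from intronic summits passed (adjusted exact p = 0.060 and 0.20). The other words called higher against flanks fell into families by shared letters. AGCGAG was at 9.74% against 3.35% of flanks and its overlapping word GAGCGA at 8.92% against 3.85%. In the lists of replicates 1 and 2 AGCGAG was at 11.1% and 5.29% of summits, and it passed in replicate 1 but not in replicate 2 (adjusted exact p = 1) or at q of 0.05 or less (adjusted exact p = 0.87). CGTGAG was at 5.07% against 0.811% of flanks, and its overlapping word GCGTGA at 6.90% against 2.23%. CGTGAG did not pass in the list of replicate 1 (adjusted exact p = 0.098) or replicate 2 (adjusted exact p = 0.65), at q of 0.05 or less (adjusted exact p = 0.092) or in the conservative list (adjusted exact p = 1). Besides CGATAG, the words TATCGA at 10.5% against 4.56% of flanks, ATATCG at 9.13% against 4.67% and GCGATA at 6.29% against 2.54% share letters with the BEAF-32 and DREF words. GCGCCA was at 8.72% against 3.75% of flanks. Of the lower words, AAGAAT was at 2.43% of summits against 8.72% of flanks, ATGAAA at 5.68% against 12.3%, and TATATA at 2.64% against 8.22%.

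The 7-base word ATGTAGA was at 33 members (6.69%, interval 4.81 to 9.25), against 1.01% of flanks, 1.32% of promoter summits, 11.7% of intergenic summits and 1.04% of all allowed intronic windows. In the lists of replicates 1 and 2 it was at 5.81% and 11.6% of intronic summits. These shares are a description, since the word was chosen on these windows. It was chosen after the windows of the strongest peaks had been seen, which can favour strong peaks. The values by signal and by replicate list that follow are therefore descriptions too. ATGTAGA was at 22 of the 124 members with the strongest 25% of signals (17.7%) and at 3 or 4 members in each of the weaker bins of 25%. None of the 33 members held CGATAG as well, a word found at 8.11% of all members. The CG7102 window held both ATGTAGA and TATCGATA. Of the 33 members, 6 held ATGTAGA more than once. Of the 50 strongest members, 11 held ATGTAGA and 12 CGATAG. Of the 33, 15 were in both replicate lists (45.5%), against 64 of the 460 others (13.9%), and 10 lay in a first intron (30.3%). Their pooled median signal was 150, against 66.4 for the others. A region in both ranked lists overlapped 23 of the 33 and 248 of the others. After CG7102, Eip74EF, unc79, Eip75B, smash and Argk1, the strongest of the 33 lay in CtsL1 (278), Sytbeta (269), Dtg (257), Zasp66 (248), CG10311 (244), Svil (195), the glutamate-gated chloride channel gene GluClalpha (182) and twi (171), which encodes a mesodermal bHLH factor.

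Intronic peaks were hosted by 391 of the 9174 protein-coding genes with at least 1 allowed intronic base (4.26%, interval 3.87 to 4.69). A single member lay in 303 of these hosts, 88 had more, and 25 had at least 3. Host genes had much intron, with a median of 12766 bp allowed, against 459.5 bp over all tested genes. In the 25% of genes with the most allowed intron, 311 of 2293 (13.6%) were hosts, and in the 25% with the least, 0 of 2312. A promoter peak was found at 270 hosts (69.1%), against 43.0% of the 8783 other genes. Within the 25% with the most intron these shares were 66.9% of hosts and 42.5% of others, and in the next 25% of genes 77.3% of 75 hosts and 46.7% of others. These are descriptions of 1 list, with no test.

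Several genes held more than 1 intronic peak. CG32264 held 6 in 71.8 kb of allowed intron, with signals between 35.1 and 299 and 1 peak in both replicate lists. The gene mam, which encodes the coactivator mastermind of Notch signalling, held 6 in 57.4 kb, with signals between 2.62 and 165 and none in both replicate lists. The gene sick held 5 in 131 kb, 3 of them in both replicate lists, with signals up to 244. Tlk, which encodes Tousled-like kinase, held 5 in 42.5 kb, with signals up to 97.7 and none in both lists. Eip75B, the zinc finger factor gene shn of the Dpp pathway, klar, which acts in transport on microtubules, and SNF4Agamma, a subunit gene of AMP-activated kinase, held 4 each, none in both lists. Snap25, Ncoa6, Antp and Imp held 3 each. The 3 peaks of Ncoa6 lay in 1.35 kb of allowed intron, and all 3 were in both replicate lists, with signals of 21.1 to 244. Only 1 of these 3 had a q value of 0.05 or less. The strongest had another summit 205 bp away, and whether neighbouring peaks overlapped the same replicate peak was not tested. Peaks with q of 0.05 or less numbered 3 each in CG32264, mam, sick, Tlk, SNF4Agamma, Snap25 and Imp. They numbered 2 in Eip75B and 1 each in shn, klar and Antp.

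The lists of genes for BTB and nuclear receptor factors and for Notch and EGFR signalling had the highest densities of intronic peaks among those reported here. Of 28 genes with allowed intron on the list of BTB and nuclear receptor factors, 12 were hosts (42.9%), with 20 peaks or 24.0 per Mb. For this and the lists that follow, the same values over all genes were 4.26% hosts and 10.2 peaks per Mb, and 13.6% of the 25% of genes with the most intron were hosts. Eip74EF (367) and Eip75B (335) came first, then EcR, the ecdysone receptor gene, with 161, and mod(mdg4), a BTB gene with a role in insulators, with 132. Eip74EF, with 2 of the 20 peaks, is an Ets factor gene and not a BTB or nuclear receptor gene. The EcR peak was in both replicate lists, the mod(mdg4) peak in that of replicate 1 alone. Others hosting a peak were psq, Eip78C, lola, Trl, Hr3, ftz-f1, ttk and br, with strongest signals between 39.6 and 117. The strongest peaks in lola, Trl, Hr3, ftz-f1, ttk and br had q values above 0.05. Those in Trl, Hr3, ftz-f1 and br were in neither replicate list.

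Of 26 Notch and EGFR pathway genes, 5 were hosts (19.2%), with 14 peaks or 34.7 per Mb. Of these 14 peaks, 6 lay in mam, none of them in both replicate lists and 3 with q of 0.05 or less. The 2 in pnt also count in the list of proneural and neural precursor genes. The strongest were in Egfr, the receptor gene, with 209 and in both replicate lists, in mam with 165, and in pnt, an Ets effector of EGFR signalling, with 128. The peaks in spi, a ligand gene, reached 72.8, and the 3 in sty, an inhibitor gene, reached 71.2. Of 29 genes of the TGF-beta, Wnt, Hedgehog and Hippo pathways, 7 were hosts (24.1%), with 10 peaks or 19.7 per Mb. The gene shn had 225, the Dpp receptor gene tkv 154 and in both lists, the Smad gene Mad 81.3 and the inhibitory Smad gene Dad 63.1. The peak in Dad had a q value above 0.05.

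Of 19 proneural and neural precursor genes with allowed intron, 3 were hosts (15.8%), with 4 peaks or 15.6 per Mb. They were pnt, numb (68.8), which encodes a Notch inhibitor passed to 1 daughter cell of sensory precursors, and emc (58.7), which encodes an inhibitor of bHLH proteins. The peak in numb had a q value of 0.05 or less, and that in emc did not. Of 37 axon guidance and adhesion genes, 7 were hosts (18.9%) with 9 peaks or 4.79 per Mb, led by kirre (404), Dscam1 (101), Ten-m (67.1) and CadN (60.4). Of 36 ion channel, receptor and synapse genes, 6 were hosts (16.7%) with 7 peaks or 4.50 per Mb, led by Shal (166), Ca-alpha1T (121), slo (84.1) and Nlg3 (49.4). The peaks in CadN and Nlg3 had q values above 0.05.

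In the other lists, 8 of 47 homeobox and patterning genes were hosts (17.02%), with 13 peaks or 13.6 per Mb. They were led by pdm3 (268), the Hox gene Antp (172), pb (114) and Ubx (92.5). Of 28 genes for RNA-binding and splicing proteins, 7 were hosts (25%) with 10 peaks or 6.44 per Mb, led by Imp (158), mbl (137), pum (128) and msi (55.6). The peak in msi had a q value above 0.05. Of 27 muscle and mesoderm genes, Zasp66 (248) and twi (171) were hosts (7.41%), both in both replicate lists, or 5.998 peaks per Mb. Of 31 ribosomal protein genes with allowed intron, none was a host in 0.00936 Mb of it, although 35 of the 48 genes of that list (72.9%) had a promoter peak.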

How the data were processed

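The samples were 2 ChIP-seq libraries of 1 group, biological replicates 1 and 2 per the labels. The deposited lists are a pooled optimal and a pooled conservative list and 1 thresholded and 1 ranked list per replicate, all made with the irreproducible discovery rate (IDR) procedure on dm6, per the text files deposited with them. The aligner and peak caller were not given in the sources used here. For each peak, the signal is the authors' peak-caller value, and the deposited lists give its q value on a −log10 scale. Read counts are not part of these lists, and depth is therefore unknown.

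Peaks were classed by summit with Ensembl release 115 annotation, each on the first class that applied of tRNA, promoter, exonic, intronic and intergenic. Sequences came from the RefSeq copy of assembly Release 6. Coordinates are 1-based. Shares have Wilson 95% intervals over peaks, which cover counting error only. Overlap with a replicate list was at least 1 bp. Classes were compared by two-sided Fisher's exact tests, and summits with flanks by exact binomial tests on discordant pairs against the flank of lower coordinate, while printed flank shares average both sides. All p-values were Benjamini-Hochberg adjusted, with Python 3.11.15 and SciPy 1.17.1, and the tests were tested on simulated data. The members, gene lists and motifs were chosen with earlier results of these data known, and the hexamer scan and ATGTAGA after seeing these values. Named genes were hosts of the 25 strongest members, hosts with the most members and up to 4 hosts per list by signal, and others were named after their values were seen. Of the list symbols, 5 were not matched. The result of 1 gene list is not reported here. Where a summit lay in nested genes, the shortest named the peak and all counted as hosts. Sequences on arm 2R are not shown.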

Additional observations from a re-analysis of the deposited data

How the results depend on the processing

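The share of peaks that were intronic (8.47%) was 4.30% in the conservative list, 5.64% among peaks with q of 0.05 or less and 6.20% with a TSS distance of 1000 bp, and 6.56% to 9.14% in the list of 1 replicate alone. The ratio of intronic to promoter median signal, taken within each list as a description, was 0.477 and became 0.507, 0.554 and 0.501 under the same choices in that order, 0.297 above the median of each class, and 0.512 to 0.543 in the list of 1 replicate alone. The excess of first introns (14.8 percentage points) was 8.09 in the conservative list, 12.8 at q of 0.05 or less and 8.87 at 1000 bp. It was -1.07 without replicate 1 and 21.4 without replicate 2, and the cause was not tested. The share of genes that are hosts (4.26%) was 1.297% in the conservative list and 1.799% to 4.67% in the list of 1 replicate alone. The differences in presence in both replicate lists kept their direction and passed under every choice tested, and on matched signal, with no test, were -2.75 and -3.00 percentage points. Motifs higher at summits than flanks (2) numbered 0 in the conservative list, where 0 passed unadjusted, and 0 with both flanks in introns, a subset of 198 members, and 2 to 3 in the list of 1 replicate alone. Lower motifs (1) also numbered 1 with the flank of higher coordinate, 0 to 1 in the list of 1 replicate alone, and 0 in all other settings. Against promoter summits, 5 motifs were higher. They numbered 0 in the conservative list, 2 at q of 0.05 or less, 2 at 1000 bp, and 3 to 4 in the list of 1 replicate alone. The 5 lower motifs numbered 3 in the conservative list, at q of 0.05 or less, above the median signal and at 1000 bp, and 2 to 5 in the list of 1 replicate alone. Against intergenic summits the 1 higher motif was lost (0) in the conservative list, at q of 0.05 or less, above the median signal, at 1000 bp and in the list of each replicate alone. The ratio of CAGCTG at summits to flanks, 1.28 with no call, was 0.857 in the conservative list. CGATAG and TATCGATA lost their calls in the conservative list, and CGATAG with both flanks in introns, where TATCGATA was in no flank and gave no ratio. Higher hexamers (12) numbered 7 at q of 0.05 or less, 4 in the conservative list, 0 with both flanks in introns (70 unadjusted) and 5 to 20 in the list of 1 replicate alone. Lower hexamers (3) numbered 0 in the conservative list, 10 with the flank of higher coordinate, 0 with both flanks in introns (68 unadjusted) and 0 to 20 in the list of 1 replicate alone. These settings of the hexamer scan were chosen after seeing the data. No paired analysis was possible because there is 1 group.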

Other observations

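Some intronic peaks of each single replicate were missing from the pooled list. The shares below are not given for other classes of peaks, so they are not particular to intronic peaks. The lists also differ in length, with 6213 peaks in replicate 1 and 2880 in replicate 2. Of the 568 intronic peaks of replicate 1, 302 (53.2%) overlapped a pooled-list peak and 266 (46.8%) did not. Of the 189 intronic peaks of replicate 2, 139 (73.5%) overlapped one and 50 (26.5%) did not. The intronic peaks of replicate 1 overlapped a peak of replicate 2 in 74 cases (13.03%), and those of replicate 2 a peak of replicate 1 in 78 (41.3%).

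Of the hexamers more frequent at intronic than at promoter summits, a few are given here that were chosen after their values were seen. CCCCCC was at 6.29% of intronic against 1.02% of promoter summits (Fisher's exact test, adjusted exact p = 3.7e-10), CCCCTC at 6.29% against 1.13% (adjusted exact p = 1.8e-09), and AGAGGG at 7.10% against 1.69% (adjusted exact p = 2.3e-08). CCCCCC was in 2.33% of the flanks of intronic peaks, and none of the 3 was called against the flanks. Against intergenic summits, CCTCCC was at 6.09% against 0.699% (adjusted exact p = 0.0038), and in that comparison 2 hexamers were higher and 12 lower.

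A few members of very low signal were in the pooled list, such as the peaks in mam (2.62), Dhc64C (2.89) and CG44837 (3.09). The last of these overlapped peaks in both replicate lists and had a q value above 0.05.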
